A study of Homo sapiens with 6 samples.

Results

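The genes described here encode the 5 complexes of mitochondrial oxidative phosphorylation, and they were chosen by symbol from a table of read counts in HMC3 cells, an established human microglial cell line. Symbols that begin with MT-ND, MT-CO, MT-CYB, MT-ATP, NDUF, UQCR or ATP5, with SDHA to SDHD, or with COX and a digit were taken, which gave 71 of the 5117 genes in the table. Of these, 13 are encoded in mitochondrial DNA, 54 are nuclear genes for subunits and 4 are nuclear genes for assembly factors. A list of 120 human genes with such symbols was drawn up to show what is missing, and it holds 13 mitochondrial subunit genes, 84 nuclear subunit genes, 22 nuclear assembly factor genes and 1 inhibitor gene. The other members of that list have no row in the table and were not analysed here.

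HMC3 cells of WT genotype had been exposed to C1s-CM, a CM with C1s (3 libraries), or to control CM, which lacked C1s and whose libraries are titled FLAG (3 libraries), and their RNA was sequenced. C1s is a complement protease, part of the first component of the classical pathway, and the series concerns microglial metabolism in glioblastoma. All cells were grown in serum-containing medium, and the labels used here name neither the cells that the CM came from nor the length of treatment. Whether each library stands for a culture of its own is not stated, so a p-value here measures spread among libraries that may be technical.

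Electrons from NADH enter the respiratory chain at complex I and those from succinate at complex II. They pass through ubiquinone to complex III, through cytochrome c to complex IV and then to oxygen, and complexes I, III and IV pump protons that drive ATP synthase, complex V. Complexes I, III, IV and V combine subunits made from mitochondrial DNA with subunits imported from the cytosol, while complex II is wholly nuclear, and microglia are known to shift between oxidative phosphorylation and glycolysis when activated.

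The table holds genes that passed the authors' threshold, so a call is not by itself a finding, and 99.4% of all 5116 genes tested were called by the edgeR quasi-likelihood test at a Benjamini-Hochberg adjusted p of 0.05. What the table can show is direction and size. Of the 71 members, 62 rose and 9 fell with C1s-CM, against 50.9% of all genes tested that rose and 48.5% that fell. The median log2 fold change was 0.26 over the members and 0.08 over all genes tested. The changes were small, with a median difference in mean level of 20.02% and a range of -32.5% to 83.1%. The levels of the groups did not overlap for 59 of the 71 members, against 97.2% of all genes tested. Groups that do not overlap are therefore usual in this table, and each such statement below is a description that does not set a gene apart. With the total counts of the table as the only scaling, the median of all genes moved to -0.05 and that of the members to 0.14, 40 members were called higher and 10 lower, and those shares were 26.1% and 49.2% over all genes. In bulk RNA, a change in the number of cells and a change in RNA per cell cannot be told apart.

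Sequences of some members are shown as a description, first the promoters of nuclear genes. No fold change below rests on the promoter letters. Nuclear respiratory genes are known targets of the factors NRF1, GABP (an ETS factor) and YY1, whose recognition letters were searched on both strands in 300 bases around each start (250 before and 50 after). RefSeq promoters on GRCh38.p14 were held for 47 of the 58 nuclear members, 61 promoters in all. Shown are COX5B and COX6A1, complex IV genes that rose by 0.37 and 0.30 on the log2 scale, and SDHB and SDHD, complex II genes that fell by 0.17 and 0.27, because both pairs carry matches. Capitals mark GCATGCGC (NRF1; also marked where GC precedes it, the longer NRF1 motif of which it is a part), CCGGAAG (ETS) and AAGATGGCG (YY1), or their reverse complements.

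COX5B, chr2:97645812-97646111, plus strand: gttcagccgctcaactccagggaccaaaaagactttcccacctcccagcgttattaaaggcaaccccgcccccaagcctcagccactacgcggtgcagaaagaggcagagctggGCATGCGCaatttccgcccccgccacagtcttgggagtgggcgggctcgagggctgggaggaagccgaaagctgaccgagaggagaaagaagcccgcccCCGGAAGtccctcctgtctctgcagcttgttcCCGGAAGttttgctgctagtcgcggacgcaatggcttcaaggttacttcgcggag

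COX6A1, chr12:120437863-120438162, plus strand: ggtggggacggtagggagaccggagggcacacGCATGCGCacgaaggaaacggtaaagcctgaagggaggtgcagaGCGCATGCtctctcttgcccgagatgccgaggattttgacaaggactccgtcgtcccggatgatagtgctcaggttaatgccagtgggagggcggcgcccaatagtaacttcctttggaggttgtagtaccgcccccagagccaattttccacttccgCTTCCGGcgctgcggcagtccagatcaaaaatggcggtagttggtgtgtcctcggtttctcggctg

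SDHB, chr1:17053983-17054282, minus strand: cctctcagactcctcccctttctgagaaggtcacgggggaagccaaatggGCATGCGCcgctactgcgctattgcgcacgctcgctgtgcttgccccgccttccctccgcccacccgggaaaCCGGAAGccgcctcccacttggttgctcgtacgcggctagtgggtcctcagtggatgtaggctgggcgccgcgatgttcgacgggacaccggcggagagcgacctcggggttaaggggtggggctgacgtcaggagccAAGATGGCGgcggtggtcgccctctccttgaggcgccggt

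SDHD, chr11:112086623-112086922, plus strand: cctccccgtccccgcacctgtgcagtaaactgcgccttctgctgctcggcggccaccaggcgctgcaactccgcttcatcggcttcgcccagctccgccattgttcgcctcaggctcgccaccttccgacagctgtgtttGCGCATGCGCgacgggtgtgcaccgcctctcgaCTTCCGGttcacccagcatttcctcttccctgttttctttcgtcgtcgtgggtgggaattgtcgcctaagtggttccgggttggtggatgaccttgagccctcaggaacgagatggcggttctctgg

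The COX5B and COX6A1 promoters each hold 3 matches, as does that of SDHB, and SDHD holds the longer NRF1 motif. GCATGCGC was in 18.0% of the nuclear members' promoters, 5.21% of those of all genes with a row and 3.05% of all 35116 promoters. It was in 8 of the 51 promoters of members that rose and in 3 of the 10 promoters of members that fell. These 51 promoters belong to 40 genes and the 10 to 7 genes, so some genes are counted more than once. The ETS letters were in 27.9% of the members' promoters, against 18.1% for genes with a row and 10.3% of all promoters, with 14 of 51 among members that rose and 3 of 10 among those that fell. For YY1 the shares were 8.20% of the members' promoters, 4.30% for genes with a row and 1.75% of all promoters, with 3 of 51 and 2 of 10. The same letters therefore stood before genes of either direction, and a match is a description of the letters, not of binding.

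All 13 mitochondrially encoded genes rose with C1s-CM, with log2 fold changes of 0.17 to 0.42 and a median of 0.27, and all 13 stayed above 0 with total-count scaling, where they were at 0.05 to 0.29 with a median of 0.14 and MT-ND4, MT-ND4L and MT-ND6 missed the threshold. Over all genes tested, 50.9% rose. The level of the 13 rose by 12.7% to 33.3%. Together they took 1.61%, 1.65% and 1.65% of the table's counts in the C1s-CM libraries, against 1.48%, 1.47% and 1.49% in the control libraries. These are shares of the table, which is a part of each library.

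**Figure D1:**
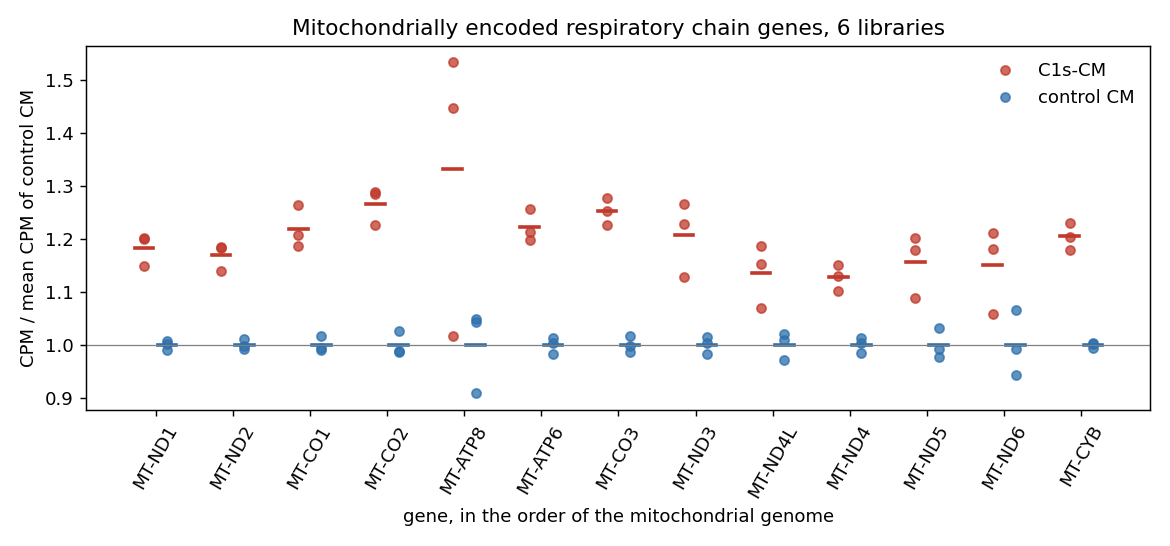
Level of each mitochondrially encoded gene in each library, in CPM (counts per 1e6 TMM-scaled counts of the table) divided by the mean of the 3 control CM libraries, for C1s-CM and control CM, with bars at group means. Groups overlap for MT-ATP8 and MT-ND6, and for the other 11 genes every C1s-CM point lies above every control point. Groups do not overlap for 97.2% of all genes tested.

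The 3 mitochondrially encoded subunits of complex IV all rose. MT-CO1, which holds the heme and copper centre where oxygen is reduced, had 47689, 47625 and 44660 counts in the C1s-CM libraries, against 36208, 39716 and 39933 counts in the control libraries, a log2 fold change of 0.29 ± 0.0281 (SE; adjusted p = 3.29e-09, edgeR). MT-CO2, which takes electrons from cytochrome c, had 33933, 37241 and 35439 counts in the C1s-CM libraries, against 27426, 28235 and 29197 counts in the control libraries, with a log2 fold change of 0.34 ± 0.0280 (adjusted p = 2.16e-10, edgeR). MT-CO3 had 26979, 28770 and 28013 counts in the C1s-CM libraries, against 21590, 22451 and 23448 counts in the control libraries, with a log2 fold change of 0.32 ± 0.0266 (adjusted p = 2.10e-10, edgeR). For each of the 3 the C1s-CM libraries were all above the control libraries. In complex III, the subunit MT-CYB, cytochrome b, had 17993, 19611 and 18301 counts with C1s-CM, against 14790, 15702 and 16332 with control CM, a log2 fold change of 0.27 ± 0.0262 (adjusted p = 3.10e-09, edgeR), and its groups did not overlap.

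The mitochondrial subunits of complex I form its proton-pumping membrane arm, and their log2 fold changes had a median of 0.21, with 0.29 when offsets were used. The membrane subunit MT-ND1, next to the ubiquinone site, had 8000, 8723 and 8336 counts with C1s-CM, against 6663, 7259 and 7454 with control CM (log2 fold change 0.24 ± 0.0273, adjusted p = 2.69e-08, edgeR). MT-ND2 had 12040, 12103 and 11991 counts with C1s-CM, against 9738, 10635 and 10834 with control CM (log2 fold change 0.23 ± 0.0265, adjusted p = 5.66e-08, edgeR). MT-ND3 had 10619, 12459 and 11529 counts with C1s-CM, against 9120, 9576 and 10215 with control CM (log2 fold change 0.27 ± 0.0329, adjusted p = 8.36e-08, edgeR). In each of these the groups were apart, with the control libraries below. MT-ND4 had 32365, 35302 and 33109 counts with C1s-CM, against 28713, 29926 and 31538 with control CM (log2 fold change 0.17 ± 0.0267, adjusted p = 2.94e-06, edgeR). MT-ND4L, whose gene runs into that of MT-ND4, had 6965, 8080 and 7490 counts with C1s-CM, against 6354, 6541 and 7108 with control CM (log2 fold change 0.18 ± 0.0329, adjusted p = 1.82e-05, edgeR). MT-ND5 had 8432, 9730 and 9112 counts with C1s-CM, against 7720, 7828 and 8221 with control CM (log2 fold change 0.21 ± 0.0325, adjusted p = 2.99e-06, edgeR). Again no control library reached a C1s-CM library in CPM. MT-ND6, the only one of the 13 on the other strand, had 1757, 2051 and 2007 counts with C1s-CM, against 1711, 1619 and 1762 with control CM (log2 fold change 0.20 ± 0.0475, adjusted p = 3.46e-04, edgeR), and here the groups overlapped, since C1s-CM library 1 was below control library 1 in CPM.

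In complex V, MT-ATP6, the membrane subunit that carries the proton path, had 18032, 17971 and 17371 counts in the C1s-CM libraries, against 13634, 14902 and 15546 counts in the control libraries, with a log2 fold change of 0.29 ± 0.0269 (adjusted p = 1.50e-09, edgeR). MT-ATP8, a small membrane subunit, had 4551, 7180 and 6466 counts in the C1s-CM libraries, against 4516, 4211 and 5020 counts in the control libraries, with a log2 fold change of 0.41 ± 0.0832 (adjusted p = 7.16e-05, edgeR). Without offsets MT-ATP8 had the largest fold change of the 13, and it had the widest spread, with 437 ± 91.1 CPM with C1s-CM and 328 ± 26.0 CPM with control CM (SD, n = 3), and C1s-CM library 1 lay within the control range while libraries 2 and 3 were above it. Reads of the 2 genes are not fully separable, because they overlap on the plus strand of the mitochondrial genome (GRCh38, GENCODE 29) at chrM:8527-8572. These 46 bases are 22.2% of MT-ATP8 and 6.75% of MT-ATP6, and are shown with the start codon of MT-ATP6 in capitals.

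MT-ATP8 and MT-ATP6 overlap: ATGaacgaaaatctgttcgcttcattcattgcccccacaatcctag

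MT-ND4L and MT-ND4 share 7 bases at chrM:10760-10766, ATGctaa, with the MT-ND4 start codon in capitals. The ratio of MT-ATP8 to MT-ATP6 counts was 0.252, 0.400 and 0.372 in the C1s-CM libraries, against 0.331, 0.283 and 0.323 in the control libraries, and the groups overlapped. That of MT-ND4L to MT-ND4 was 0.215, 0.229 and 0.226, against 0.221, 0.219 and 0.225 in the control libraries, also overlapping.

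Per kilobase of gene, the level of the mitochondrially encoded genes spanned more than their change did. MT-CO2 was highest, at 3752 ± 103 CPM per kb with C1s-CM and 2962 ± 67.2 with control CM (SD, n = 3 each), and MT-ND6 lowest, at 267 ± 19.0 and 232 ± 14.5 CPM per kb. With C1s-CM the order of level per kb was MT-CO2, MT-CO3, MT-ND3, MT-CO1, MT-ATP8, MT-ATP6, MT-ND4L, MT-ND4, MT-CYB, MT-ND2, MT-ND1, MT-ND5 and MT-ND6. The middle of that order was not separated by the spread: with C1s-CM, MT-ATP8 had 2112 ± 440 CPM per kb, MT-ATP6 1887 ± 46.1, MT-ND4L 1826 ± 97.8 and MT-ND4 1760 ± 38.2, and with control CM the 4 lay between 1543 ± 23.6 and 1607 ± 42.4. The RNA was selected by its poly(A) tail, and MT-ND6 RNA is known to lack a stable tail.

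Of the other transcripts of the mitochondrial genome, 3 of 8 listed had a row and all 3 rose, MT-RNR1 by 0.22, MT-TP by 0.26 and MT-RNR2 by 0.09 on the log2 scale, the ribosomal RNAs and a tRNA. With total-count scaling none of the 3 was called, with MT-RNR1 at 0.09, MT-TP at 0.14 and MT-RNR2 at -0.04. MT-TP, at 0.07, was also not called with the offsets described below. Genes named after their values were seen are the tRNAs MT-TC and MT-TN, with log2 fold changes of 0.35 and 0.30 without the GC and length offsets described below and -0.32 and -0.19 with them, and the nuclear copies MTCO1P12, MTATP6P1 and MTND2P28, with 0.37, 0.27 and 0.18. Reads of such copies and of the mitochondrial genes are nearly identical, so how the counts divide between them is uncertain.

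Coordinates of nuclear genes below are those of GENCODE 29 on GRCh38. Among the nuclear subunits, 45 rose and 9 fell, against 50.9% and 48.5% of all genes tested. The 9 that fell were spread over complexes I (3), II (2), III (2) and V (2). Counts by complex below are read against the same shares. Complex IV had no subunit that fell by this test. With total-count scaling the same 9 were called lower and 27 were called higher, against 49.2% and 26.1% of all genes. That scaling lowered the log2 fold change of every member, so genes that had fallen could only stay below 0.

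**Figure D2:**
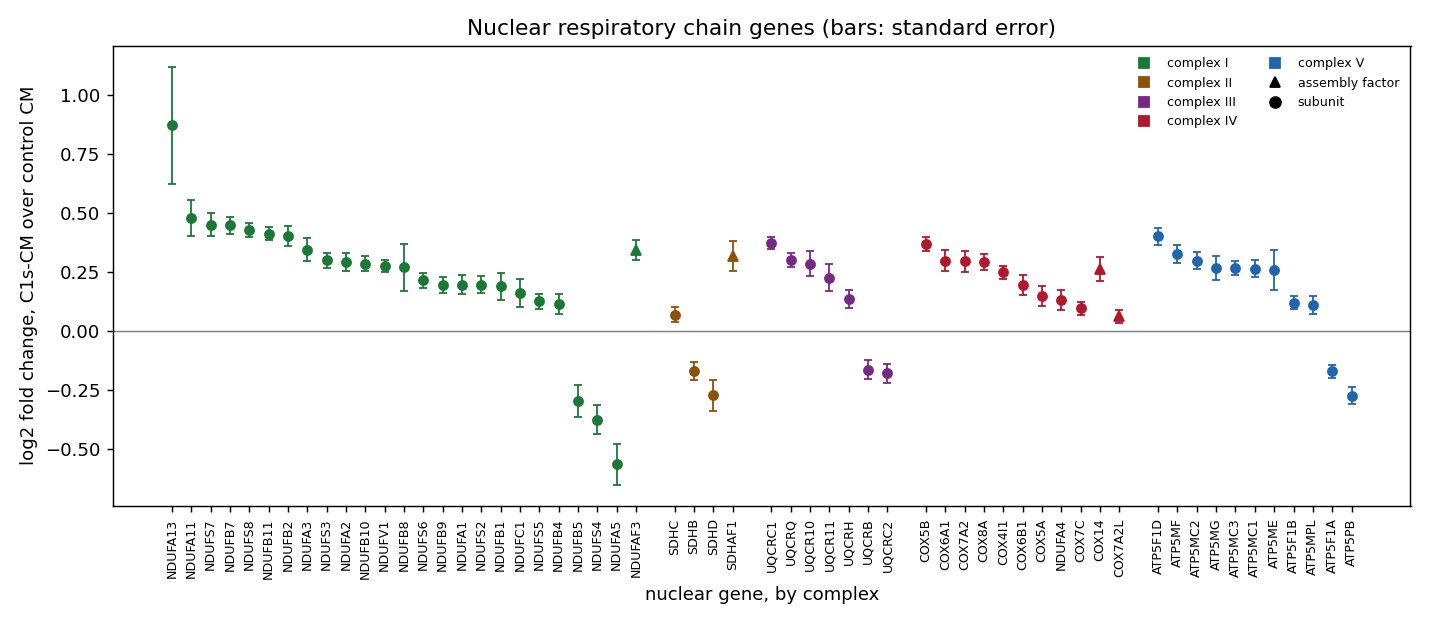
Log2 fold change, C1s-CM over control CM, of the 58 nuclear members by complex, with bars for the standard error of the edgeR fit, circles for subunits and triangles for assembly factors. Points above 0 are higher with C1s-CM, and each of complexes I, II, III and V holds points on either side of 0. With total-count scaling NDUFS5, NDUFB4, SDHC, COX7C, COX7A2L, ATP5F1B and ATP5MPL lie below 0.

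In complex I, 24 of 37 listed nuclear subunits had a row, of which 21 rose and 3 fell, and with total-count scaling NDUFS5 and NDUFB4 moved to -4.0e-05 and -0.01. All 5 core subunits with a row rose, by 0.20 to 0.45, and 16 of 19 accessory subunits did. NDUFS8 (chr11:68030617-68036644, plus strand), a core subunit with iron-sulfur clusters of the matrix arm, had 4731, 4779 and 4536 counts in the C1s-CM libraries, against 3357, 3590 and 3590 counts in the control libraries, with a log2 fold change of 0.43 ± 0.0296 (adjusted p = 1.35e-11, edgeR). NDUFB11, an accessory subunit of the membrane arm, had 6622, 6931 and 6542 counts in the C1s-CM libraries, against 4776, 5209 and 5251 counts in the control libraries, with a log2 fold change of 0.41 ± 0.0268 (adjusted p = 5.17e-12, edgeR). NDUFB7, also of the membrane arm, had 3600, 3829 and 3745 counts in the C1s-CM libraries, against 2748, 2616 and 2889 counts in the control libraries, with a log2 fold change of 0.45 ± 0.0359 (adjusted p = 1.44e-10, edgeR). In each of these the C1s-CM libraries lay above the controls with no overlap. The core subunits NDUFS7 and NDUFV1, which hold an iron-sulfur cluster and the NADH-binding flavin, had log2 fold changes of 0.45 ± 0.0489 and 0.28 ± 0.0265. The largest fold change in complex I, 0.87 for NDUFA13, rested on few counts, 32, 58 and 50 counts with C1s-CM, against 23, 19 and 35 with control CM, and its groups overlapped in CPM.

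The 3 complex I genes that fell are accessory subunits. NDUFA5 (chr7:123536997-123558255, minus strand), of the matrix arm, had 313, 296 and 389 counts in the C1s-CM libraries, against 465, 500 and 528 counts in the control libraries, with a log2 fold change of -0.57 ± 0.0865 (adjusted p = 2.48e-06, edgeR). NDUFS4 (chr5:53560633-53683340, plus strand), a matrix arm subunit whose loss causes Leigh syndrome, had 447, 479 and 481 counts in the C1s-CM libraries, against 579, 608 and 657 counts in the control libraries, with a log2 fold change of -0.38 ± 0.0619 (adjusted p = 6.59e-06, edgeR). NDUFB5, of the membrane arm, had 436, 446 and 437 counts in the C1s-CM libraries, against 482, 544 and 611 counts in the control libraries, with a log2 fold change of -0.30 ± 0.0674 (adjusted p = 2.62e-04, edgeR). For all 3 every C1s-CM library was below every control library in CPM. At 24.1 to 33.9 CPM with C1s-CM and 35.6 to 44.0 CPM with control CM, the 3 were among the members with the fewest counts.

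Complex II, the succinate dehydrogenase that also belongs to the citrate cycle, was the only complex in which more subunits fell than rose, 2 of the 3 with a row of 4 listed. SDHB (chr1:17018722-17054170, minus strand), the iron-sulfur subunit, had 1407, 1423 and 1396 counts in the C1s-CM libraries, against 1509, 1594 and 1696 counts in the control libraries, with a log2 fold change of -0.17 ± 0.0387 (adjusted p = 2.74e-04, edgeR). SDHD, a membrane anchor, had 723, 690 and 579 counts in the C1s-CM libraries, against 725, 833 and 872 counts in the control libraries, with a log2 fold change of -0.27 ± 0.0651 (adjusted p = 4.30e-04, edgeR). Both were below the controls in every C1s-CM library in CPM. The other anchor, SDHC (chr1:161314257-161375340, plus strand), had 3018, 3047 and 2920 counts in the C1s-CM libraries, against 2694, 2993 and 2957 counts in the control libraries, a log2 fold change of 0.07 ± 0.0318 (adjusted p = 0.0395, edgeR) that was -0.06 with total-count scaling. SDHAF1, the factor that helps place iron-sulfur clusters in SDHB, had 721, 712 and 673 counts in the C1s-CM libraries, against 485, 591 and 629 counts in the control libraries, with a log2 fold change of 0.32 ± 0.0632 (adjusted p = 6.13e-05, edgeR), and with offsets SDHAF1 was at -0.01 and SDHB at -0.21.

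In complex III, 7 of 8 listed nuclear subunits had a row, of which 5 rose and 2 fell, with the same signs under total-count scaling. UQCRC1 (chr3:48599002-48610976, minus strand), a core protein that faces the matrix, had 11131, 11520 and 11241 counts in the C1s-CM libraries, against 8318, 8869 and 9232 counts in the control libraries, with a log2 fold change of 0.37 ± 0.0257 (adjusted p = 1.25e-11, edgeR). Its partner in the same matrix-facing core, UQCRC2 (chr16:21952660-21983660, plus strand), had 1512, 1737 and 1636 counts in the C1s-CM libraries, against 1751, 1913 and 1920 counts in the control libraries, with a log2 fold change of -0.18 ± 0.0398 (adjusted p = 2.02e-04, edgeR). The C1s-CM libraries were thus all above the controls for UQCRC1 and all below them for UQCRC2. UQCRQ had 5304, 5685 and 5217 counts with C1s-CM, against 4299, 4487 and 4489 with control CM (log2 fold change 0.30 ± 0.0295, adjusted p = 3.44e-09, edgeR). UQCR10 had 1176, 1267 and 1154 counts with C1s-CM, against 982, 1055 and 936 with control CM (log2 fold change 0.29 ± 0.0529, adjusted p = 2.83e-05, edgeR). UQCRB, a small subunit near the ubiquinone site, had 2099, 2463 and 2203 counts with C1s-CM, against 2437, 2661 and 2547 with control CM (log2 fold change -0.16 ± 0.0398, adjusted p = 4.79e-04, edgeR). None of these 5 genes had overlapping groups, which was also so for 97.2% of all genes tested.

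In complex IV, 9 of 18 listed nuclear subunits had a row and all 9 rose, by 0.10 to 0.37, against 50.9% of all genes tested that rose. With total-count scaling COX7C was at -0.03. COX5B, which binds zinc and whose promoter is printed above, had 6616, 6581 and 6533 counts in the C1s-CM libraries, against 4787, 5351 and 5282 counts in the control libraries, with a log2 fold change of 0.37 ± 0.0291 (adjusted p = 1.12e-10, edgeR). COX8A had 5341, 5606 and 4880 counts in the C1s-CM libraries, against 4239, 4327 and 4447 counts in the control libraries, with a log2 fold change of 0.29 ± 0.0337 (adjusted p = 3.71e-08, edgeR). COX4I1, the common isoform of the regulatory subunit that binds adenine nucleotides, had 9330, 10501 and 9690 counts in the C1s-CM libraries, against 8053, 8398 and 8609 counts in the control libraries, with a log2 fold change of 0.25 ± 0.0291 (adjusted p = 5.21e-08, edgeR). In all 3 the C1s-CM libraries were above the controls. With the GC and length offsets of the representative transcript, described below, COX5B was at 0.26, COX4I1 at 0.06 and COX8A at -0.04. COX8A and COX6B1 were below 0 and not called with all 3 kinds of offsets. Counts of calls by complex with offsets are given below. The groups overlapped for COX6B1, COX5A and NDUFA4, which was first assigned to complex I and belongs to complex IV. The assembly factor COX14, which acts on newly made COX1, had 982, 1028 and 950 counts with C1s-CM, against 806, 813 and 869 with control CM (log2 fold change 0.26 ± 0.0493, adjusted p = 3.25e-05, edgeR). COX7A2L, which joins complexes III and IV into supercomplexes, had 5740, 5941 and 5792 counts with C1s-CM, against 5246, 5739 and 5904 with control CM (log2 fold change 0.06 ± 0.0269, adjusted p = 0.0282, edgeR), and with total-count scaling it was called lower, at -0.06.

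In complex V, 11 of 17 listed nuclear subunits had a row, of which 9 rose and 2 fell, and with total-count scaling ATP5F1B and ATP5MPL moved to -0.0046 and -0.02. ATP5F1D, the delta subunit of the rotating stalk, had 4056, 3772 and 3890 counts in the C1s-CM libraries, against 2760, 3080 and 3116 counts in the control libraries, with a log2 fold change of 0.40 ± 0.0361 (adjusted p = 8.56e-10, edgeR). ATP5MC3, which with ATP5MC1 and ATP5MC2 encodes the same mature c subunit of the rotor ring, had 5842, 6513 and 6030 counts in the C1s-CM libraries, against 5029, 5145 and 5224 counts in the control libraries, with a log2 fold change of 0.27 ± 0.0306 (adjusted p = 3.71e-08, edgeR). ATP5MC1 and ATP5MC2 had log2 fold changes of 0.26 ± 0.0369 and 0.30 ± 0.0368, and with offsets the 3 genes for that protein were not alike, ATP5MC1 at 0.05, ATP5MC2 at 0.09 and ATP5MC3 at 0.75. ATP5MF, a membrane subunit, had 2534, 2940 and 2569 counts in the C1s-CM libraries, against 2106, 2136 and 2225 counts in the control libraries, with a log2 fold change of 0.33 ± 0.0387 (adjusted p = 6.21e-08, edgeR). None of these groups overlapped. The 2 that fell were ATP5F1A (chr18:46080248-46104334, minus strand), the alpha subunit of the catalytic head, with 5188, 5467 and 5141 counts with C1s-CM, against 5671, 6120 and 6160 with control CM (log2 fold change -0.17 ± 0.0269, adjusted p = 3.50e-06, edgeR), and ATP5PB, of the peripheral stalk, with 1729, 1773 and 1621 counts with C1s-CM, against 1957, 2103 and 2197 with control CM (log2 fold change -0.28 ± 0.0362, adjusted p = 3.01e-07, edgeR). ATP5F1B (chr12:56638175-56646068, minus strand), the beta subunit that alternates with alpha in the head, had 19987, 21283 and 19962 counts with C1s-CM, against 18329, 18881 and 19578 with control CM, a log2 fold change of 0.12 ± 0.0264 (adjusted p = 1.78e-04, edgeR).

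The fourth assembly factor with a row, NDUFAF3, which acts early in building the matrix arm of complex I, had 1998, 1857 and 1836 counts in the C1s-CM libraries, against 1374, 1538 and 1613 counts in the control libraries, with a log2 fold change of 0.35 ± 0.0428 (adjusted p = 1.22e-07, edgeR). Its groups did not overlap. All 4 assembly factors with a row therefore rose with TMM scaling and no offsets, 4 of 22 listed, against 50.9% of all genes tested. COX7A2L was lower with total-count scaling. The GC content of NDUFAF3, SDHAF1 and COX14 was 64.0%, 63.4% and 55.5%, and at 50% GC or more 97.2% of all genes rose. With the GC and length offsets described below, NDUFAF3, SDHAF1 and COX14 were not called.

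Ratios of counts within a library do not depend on how libraries are scaled, and 10 pairs of members were set side by side after their values had been seen, so no test is given. UQCRC1 over UQCRC2 was 7.36, 6.63 and 6.87 in the C1s-CM libraries, against 4.75, 4.64 and 4.81 in the control libraries. ATP5F1B over ATP5F1A was 3.85, 3.89 and 3.88 with C1s-CM, against 3.23, 3.09 and 3.18 with control CM. SDHC over SDHB was 2.14, 2.14 and 2.09 with C1s-CM, against 1.79, 1.88 and 1.74 with control CM. NDUFS8 over NDUFS4 was 10.6, 9.98 and 9.43 with C1s-CM, against 5.80, 5.91 and 5.46 with control CM. In these 4 pairs no control library reached a C1s-CM library, and since each pair sets a gene with the higher log2 fold change over one with the lower, the direction was fixed by the choice. Offsets for GC content and length, described below, change some of these contrasts. UQCRC1 and UQCRC2 were at 0.19 and 0.19 with offsets of the coding sequence, but at 0.13 and 0.01 with those of the representative transcript. ATP5F1B and ATP5F1A were at 0.04 and 0.09 with offsets of the representative transcript, but at 0.29 and 0.17 with those of the coding sequence. NDUFS8 stayed above NDUFS4, and SDHC above SDHB, with all 3 kinds of offsets.

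**Figure D3:**
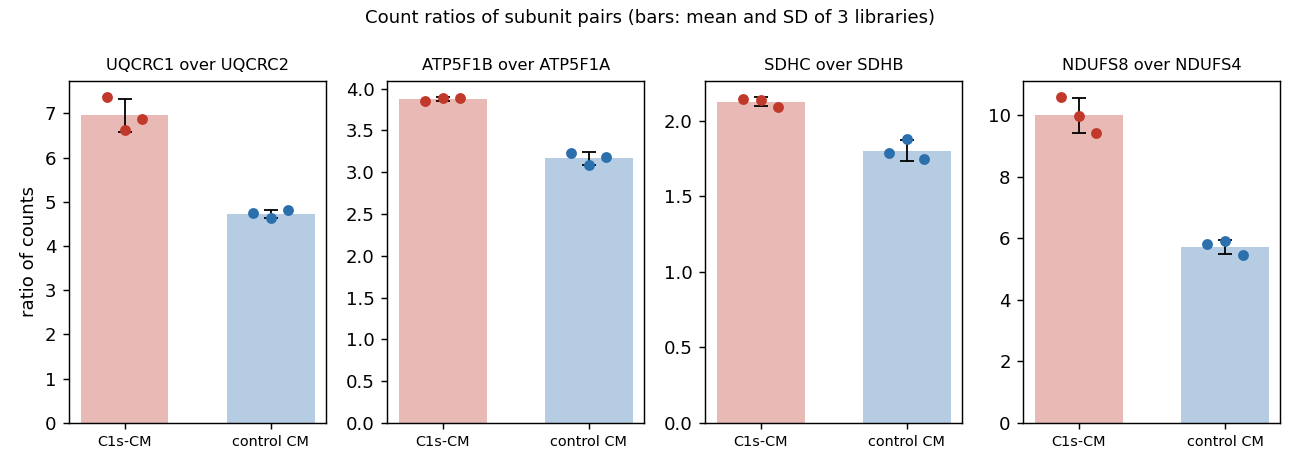
Ratio of the counts of 2 nuclear subunits of the same complex in each library (points), with bars for the mean and error bars for the SD of 3 libraries, for C1s-CM and control CM. The ratio is higher in all 3 C1s-CM libraries than in all 3 control libraries in each of the 4 panels.

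Ratios of a mitochondrial to a nuclear subunit were taken between genes that had both risen with TMM scaling. MT-CO1 over COX4I1 averaged 4.75 ± 0.314 with C1s-CM and 4.62 ± 0.118 with control CM (SD, n = 3 each), and MT-CO2 over COX5B averaged 5.40 ± 0.266 and 5.51 ± 0.227, and in both the groups overlapped. MT-CYB over UQCRC1 was 1.62, 1.70 and 1.63 with C1s-CM, against 1.78, 1.77 and 1.77 with control CM. MT-ATP6 over ATP5F1B was 0.902, 0.844 and 0.870 with C1s-CM, against 0.744, 0.789 and 0.794 with control CM. The last pairs had no overlap and ran in opposite directions.

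The direction of the nuclear members followed the GC content of their transcripts, as it did over the whole table. Spearman's rho between log2 fold change and GC content of a representative transcript was 0.77 over the 58 nuclear members and 0.85 over 5112 genes, across genes that share the same 6 libraries, while over the 13 mitochondrially encoded genes it was 0.08. The nuclear members that rose had a median GC content of 53.7% and those that fell 42.8%. At 50% GC or more, 32 of 32 nuclear members and 97.1% of the other genes rose. Below 50% GC, 17 of 26 nuclear members rose, against 4.78% of the other genes. Within the part below 50% GC, 12 of 16 nuclear members of up to 1500 bases rose, against 33.1% of the other genes of that length. Above 1500 bases it was 5 of 10 nuclear members, against 3.38% of the other genes.

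**Figure D4:**
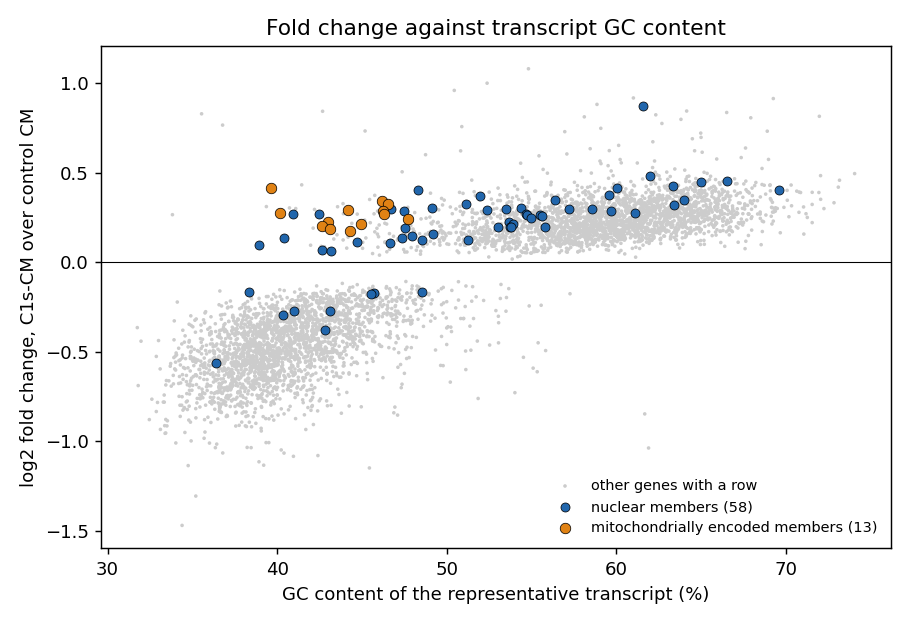
Log2 fold change, C1s-CM over control CM, against the GC content (%) of a representative transcript, for 58 nuclear members, 13 mitochondrially encoded members and the other genes with a row. The mitochondrially encoded genes lie at 39.6% to 47.7% GC and above 0, where most other genes lie below 0, and nuclear members below 0 are all under 50% GC.

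The mitochondrially encoded genes rose at a GC content at which most other genes fell. Their GC content was 39.6% to 47.7%, and in that range 13 of 13 rose, against 63 of 1385 other genes (4.55%). Among other genes within their range of GC content and of length, 22 of 116 rose (19.0%). The unspliced, short-tailed mitochondrial transcripts differ from these nuclear transcripts in more than GC content and length, and the part of those differences was not tested.

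When offsets per library for GC content and length were put into the edgeR fit, 12 of the 13 mitochondrially encoded genes were still called higher, with a median log2 fold change of 0.31, against 14.4% of all genes. MT-ND4L, at 0.06, missed the threshold. Of the 54 nuclear subunits, 22 were called higher and 2 lower, against 14.4% and 11.4% of all genes, and 1 of 4 assembly factors, COX7A2L, was called higher at 0.22. The 2 called lower were NDUFS4 at -0.26 and SDHB at -0.21. Of the other 7 nuclear subunits that had fallen, UQCRB and ATP5F1A were called higher, at 0.39 and 0.09, and NDUFA5, NDUFB5, SDHD, UQCRC2 and ATP5PB were not called, at values between -0.07 and 0.07. By complex, the calls were 6 higher and 1 lower in complex I, 1 and 1 in complex II, 5 and 0 in complex III, 6 and 0 in complex IV and 4 and 0 in complex V.

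**Figure D5:**
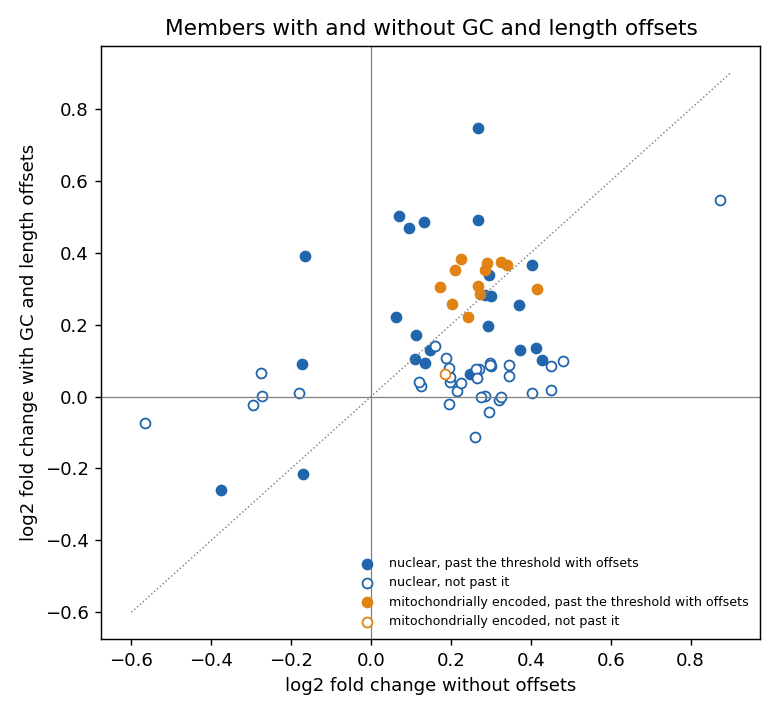
Log2 fold change of each member with GC and length offsets against that without, C1s-CM over control CM, with filled points for members past the threshold with offsets and the dotted line marking equal values. The mitochondrially encoded genes lie at 0.22 to 0.38 with offsets except MT-ND4L, and most nuclear members above 0.2 without offsets move toward 0.

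The kind of transcript used for the offsets mattered for the nuclear members. With the longest transcript per gene, 12 mitochondrially encoded genes and 26 nuclear subunits were called higher and 2 nuclear subunits lower, against 14.5% and 12.4% of all genes. With the coding sequence alone, 13 mitochondrially encoded genes, at a median of 0.60, and 25 nuclear subunits were called higher and 2 lower, against 18.7% and 14.5%. The 2 lower were then NDUFA5 at -0.35 and SDHD at -0.41. ATP5MC3, whose representative transcript is long, had 0.75 with offsets from that transcript and 0.27 with offsets from the coding sequence.

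Taken over the fit without offsets and all 3 kinds of offsets, 12 of 13 mitochondrially encoded genes and 12 of 58 nuclear members were called higher each time, against 4.46% of all genes, and 0 members were called lower each time, against 2.17%. This joint count was added after the separate counts had been seen. Only genes called higher without offsets could enter it: 13 of 13 mitochondrially encoded genes, 49 of 58 nuclear members and 50.9% of all genes. Offsets of the coding sequence raised the log2 fold change of every mitochondrially encoded gene, so that setting took no call from them. The 12 nuclear genes were NDUFS8, NDUFB11, NDUFB2 and NDUFB4 of complex I, UQCRC1 and UQCRQ of complex III, COX7A2, COX4I1 and NDUFA4 of complex IV, and ATP5MC3, ATP5MG and ATP5MPL of complex V. With total-count scaling added, 10 mitochondrially encoded and 9 nuclear genes were left, against 3.47% of all genes, and NDUFB4, NDUFA4 and ATP5MPL dropped out.

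Genes that share exons limit some of these values, since nothing used here says whether counting took strand into account. By GENCODE 29, 37 of the 71 members share exon bases with another gene, and for 10 the shared part is over 20% of their exons. These are ATP5ME with MYL5 (61.6%), NDUFB11 with RBM10 (44.9%), NDUFA1 with RNF113A (44.5%), NDUFS7 (35.7%), COX8A (34.5%), NDUFB8 (33.8%), NDUFB2 with BRAF (27.9%), MT-ATP8 (22.2%), NDUFAF3 with DALRD3 (21.7%) and UQCRQ with GDF9 (20.8%).

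Other genes of the pathway were counted from lists. Over all genes tested, 50.9% rose and 48.5% fell without offsets, and 14.4% and 11.4% were called higher and lower with offsets. Of 25 further genes for assembly of complexes III and IV and for electron carriers, 9 had a row, 7 rose and 2 fell, and CYC1, cytochrome c1 of complex III, rose by 0.31 and COA3, a complex IV assembly factor, by 0.38, while CYCS, cytochrome c, fell by 0.22 and LYRM7, a complex III assembly factor, by 0.64. Of 23 further genes for assembly of complexes I and V, 10 had a row, 7 rose and 3 fell, among them ECSIT at 0.31 and DMAC1 at 0.30, and NUBPL, which supplies iron-sulfur clusters to complex I, at -0.53 and LYRM2 at -0.42. Each list had 3 genes called higher and 0 lower with offsets, and CYCS was among those called higher, at 0.20, against -0.22 without offsets. The genes that copy, transcribe and process mitochondrial DNA and its RNA had 9 of 37 with a row, of which 4 rose and 5 fell. LRPPRC, which stabilises mitochondrial mRNA, fell by 0.46 and TFAM, which packages and helps transcribe mitochondrial DNA, by 0.43, while FASTK, needed for MT-ND6 RNA, was at 0.39 and HSD17B10, part of mitochondrial RNase P, at 0.33. Without offsets LRPPRC and TFAM thus had the opposite sign to the mitochondrial genes. The 4 that rose had the same sign, among them POLRMT, the mitochondrial RNA polymerase, at 0.32. With offsets LRPPRC, at -0.03, TFAM, at 0.12, and POLRMT, at 0.04, were not called. In this list 2 genes were called higher and 0 lower with offsets.

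Of 15 nuclear regulators, 6 had a row, 2 rose and 4 fell, with GABPA, the ETS factor whose letters were searched above, at -0.73, CREB1 at -0.55, ESRRA at 0.21 and PPRC1, a coactivator of the PGC-1 family, at 0.16, and 0 were called with offsets. Of 15 carriers of the inner and outer membrane, 5 had a row, 4 rose and 1 fell, with UCP2 at 0.33, the ADP/ATP carrier SLC25A6 at 0.26 and VDAC3, an outer membrane channel, at -0.25. With offsets 2 of these carriers were called higher, UCP2 among them, and 0 lower, while SLC25A6, at -0.03, and VDAC3, at -0.08, were not called. Of 12 genes that remove superoxide and peroxide, 9 had a row, 6 rose and 3 fell, with GPX4 at 0.36, PRDX5 at 0.33, PRDX3 at -0.36 and SOD2 at -0.40, and 0 were called with offsets. Of 21 genes for ubiquinone synthesis and further dehydrogenases, 4 had a row, 2 rose, ETFB and COQ4, at 0.26 and 0.22, and 2 fell, GPD2 and ETFA, at -0.45 and -0.28. With offsets 0 of these 4 were called.

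The table summed to 14195082 to 14961744 counts in the C1s-CM libraries and 12730766 to 13863120 in the control libraries. C1s-CM library 1 was the lowest of its group in 41 of the 71 members, 57.7%, against 31.8% of all genes, and in 10 of the 13 mitochondrially encoded genes. Of 10 macrophage and dendritic cell markers, CD163, CD209 and CCR2 had a row, with a summed level of 50.7 to 59.6 CPM with C1s-CM and 0 counts in every control library. Of 10 fibroblast markers 3 had a row, with a summed level of 5049 to 5125 CPM with C1s-CM and 4725 to 4848 CPM with control CM. Of these, COL1A1 was not called, at 0.03, and was called lower with total-count scaling at -0.10 and with offsets at -0.18, while PDGFRB and TAGLN were at 0.12 and 0.31. Of the astrocyte and glioma, endothelial and T cell markers, 0 had a row. The part of such markers in the results on the respiratory chain was not tested.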

How the data were processed

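Poly(A)-selected RNA of HMC3 cells was sequenced from both ends, per the labels' protocols. The submitters' processing notes name Trim Galore 0.6.7, FastQC 0.11.9, HISAT2 2.2.1, the build GRCh38 and DESeq2 1.40.2. Which counter and annotation were used, and whether strand was, is not given in the sources used here. If strand was not used, overlapping or antisense genes share reads. The authors deposited raw counts per gene, not normalized, and, per the file headers, the log2 fold change with its p-value, raw and adjusted, of their own comparison. Adjusted p-values in the authors' deposited table reached at most 0.05. The 5117 genes are therefore called genes, the column totals cover a part of each library, and a test on them gives no independent evidence of change. In the authors' deposited table the log2 fold changes had the same sign as here for 71 of the 71 members.

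Counts were tested with edgeR 4.0.16 in R 4.3.3: filterByExpr (RNY1 removed, 5116 genes tested), TMM scaling, the two-sided quasi-likelihood test with group as the only term, and Benjamini-Hochberg adjustment over all genes tested at 0.05. CPM use the TMM-scaled totals. Standard errors are log2 fold changes over the square root of F. TMM assumes that most genes do not change, and here the genes had been called as changed. GENCODE 29 held 5113 of the gene identifiers. Offsets per library came from a loess fit (span 0.3) of log2 CPM against GC content and transcript length (log2) over the table's genes, 5112 tested, or 5021 with a coding sequence, and any biological difference that follows GC content would be taken out with them. The fits without offsets and with offsets of the representative transcript had been run on simulated data with few changed genes and a linear GC trend. That setting differs from this table of called genes, and the other alternatives were not simulated. The members, lists and alternatives were chosen with earlier results of these data known. Values per library are given for all mitochondrially encoded members and, in each complex, for up to 3 nuclear subunits and up to 3 assembly factors of each direction with the smallest p. In the other lists up to 2 genes of each direction are named by the same measure, and other members are named for their role or after their values were seen. No pair of libraries was identical: the chi-square per degree of freedom between libraries of a group was 2.02 to 4.96. The list of microglial markers is not reported here.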

Additional observations from a re-analysis of the deposited data

How the results depend on the processing

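No member lost its call or changed direction when scaling left out the mitochondrially encoded genes or when no count filter was used. A filter of at least 50 counts in 3 libraries left out NDUFA13 only. DESeq2 (1.42.0) took the call from NDUFC1, NDUFB4, SDHC and COX7A2L. Leaving out 1 library at a time gave 13 mitochondrially encoded genes called higher each time, 41 to 44 nuclear subunits higher and 9 lower, and 3 to 4 assembly factors higher, against 49.2% to 50.2% of all genes higher and 48.5% lower. The calls of NDUFB8, NDUFC1, NDUFB4, SDHC, COX7A2L, ATP5ME and ATP5MPL were lost in some of these fits, and none of the 71 changed sign. Libraries with the same number did not deviate together (correlations -0.127, -0.087 and -0.003). With 3 libraries a group and a table of called genes, this cannot settle whether the numbers stand for batches. With the replicate number as a block, 44 nuclear subunits were called higher and 9 lower, against 50.3% and 48.5% of all genes, and SDHC and COX7A2L missed the threshold. Block and offsets together gave 20 nuclear subunits higher and 2 lower and 1 assembly factor higher, against 13.1% and 9.86% of all genes.

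The counts that moved by over 1.5 times were of nuclear genes. Nuclear subunits called higher numbered 45, against 27 with total-count scaling, 22 with offsets, 26 with offsets of the longest transcript and 25 with those of the coding sequence. In the same order, the shares of all genes called higher were 50.9%, 26.1%, 14.4%, 14.5% and 18.7%, so the whole table dropped as well. Nuclear subunits called lower numbered 9, against 2 with each of these 3 kinds of offsets. The shares of all genes called lower were 48.5%, against 11.4%, 12.4% and 14.5% with those offsets. Assembly factors called higher numbered 4, against 1 with offsets, 1 with the longest transcript and 0 with the coding sequence, and total-count scaling called 1 lower.

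Log2 fold changes of opposite sign to those reported were as follows, and the cause was not tested. With total-count scaling they were NDUFS5 -4.0e-05, NDUFB4 -0.0132, SDHC -0.0563, COX7C -0.0298, COX7A2L -0.0628, ATP5F1B -0.0046 and ATP5MPL -0.0163. With offsets they were NDUFV1 -0.0010, SDHD 0.0006, SDHAF1 -0.0109, UQCRB 0.3921, UQCRC2 0.0095, COX8A -0.0428, COX6B1 -0.0215, ATP5MF -0.0006, ATP5ME -0.1112, ATP5F1A 0.0913 and ATP5PB 0.0651. With block and offsets they were NDUFV1 -0.0010, SDHAF1 -0.0087, UQCRB 0.3910, UQCRC2 0.0091, COX8A -0.0444, COX6B1 -0.0229, ATP5MF -0.0010, ATP5ME -0.1121, ATP5F1A 0.0911 and ATP5PB 0.0644. With offsets of the longest transcript they were NDUFA1 -0.0220, NDUFS5 -0.0502, NDUFB5 0.1663, NDUFA5 0.0440, SDHAF1 -0.0069, UQCRH -0.0243, UQCRB 0.3723, COX8A -0.0641, COX6B1 -0.0771, ATP5ME -0.0738, ATP5F1B -0.0530, ATP5F1A 0.0428 and ATP5PB 0.0196. With offsets of the coding sequence, added after the long representative transcripts of some members had been seen, they were NDUFA2 -0.0104, NDUFS6 -0.0662, NDUFC1 -0.0975, NDUFB5 0.0041, UQCR10 -0.0046, UQCR11 -0.1074, UQCRB 0.0853, UQCRC2 0.1886, COX6A1 -0.0087, COX8A -0.0397, COX6B1 -0.0573, COX14 -0.0036, COX7A2L -0.0117, ATP5F1A 0.1693 and ATP5PB 0.0041. The mitochondrially encoded genes had the same sign under all of these alternatives. With 3 libraries a group, a table of called genes and offsets fitted on those genes alone, neither the scaling nor the GC trend can be settled from this table, and sequencing depth is unknown because the totals are partial.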
